A study of Mus musculus with 2 samples.

Results

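Among sorted marrow cells of mice with severe aplastic anemia (SAA), 88 cells were non-cycling monocytes with at least 1 unique molecular identifier (UMI, a tag that counts each captured RNA molecule once) of *Cxcl9*. They were 12.1% of the 729 cells kept in the SAA library and 88 of the 1391 cells kept in both libraries. The members were chosen by their own counts. A cell had to hold at least 1000 detected genes and at most 25% mitochondrial RNA, at least 3 UMIs summed over the monocyte genes *Csf1r*, *Ccr2*, *F13a1*, *Ms4a6c* and *Ly86*, and more of these than of 8 granule genes (*Camp*, *Ngp*, *Fcnb*, *Cebpe*, *Elane*, *Mpo*, *Prtn3* and *Ctsg*). It also had to hold fewer than 5 UMIs over 6 genes of dividing cells (*Mki67*, *Top2a*, *Birc5*, *Ccna2*, *Stmn1* and *Pclaf*). Within the same library, 40 cells passed every one of these limits but held no *Cxcl9* UMI, and members were compared with these Cxcl9-zero cells. The Cxcl9-positive cells were thus 88 of 128 non-cycling monocytes, a share of 68.8% (exact 95% binomial interval 60.0–76.7, counting error only).

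The SAA mice were C57BL/6 and Balb/c hybrids that had 300 rads of radiation and then received 65000000 splenocytes from C57BL/6 (B6) donors, whose T cells attack the host marrow. The radiation controls (RC) were the same hybrids with 300 rads and no splenocytes, so irradiation is common to both groups. Cells negative for the dead-cell dye 7-AAD, positive for CD11b and Ly6C and negative for Ly6G were sorted from bone marrow, pooled from 3 mice in each group, and made into 1 droplet library per group that captures the 5′ ends of RNAs. The age of the mice and the day of harvest of these cells were not given in the sources used here, and donor and host cells cannot be told apart in these counts.

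With 1 library per group and the members chosen on *Cxcl9* in the same cells, every value below is a description, with no test. Levels are UMIs of a gene per 1000000 UMIs (CPM), summed over the cells of a class, ratios are CPM in Cxcl9-positive cells over CPM in Cxcl9-zero cells, and intervals are exact 95% intervals that cover counting error only. The SAA library held 5592265 UMIs in 825 barcodes and the RC library 4066589 UMIs in 798 barcodes. They had 1 barcode in common, which was not kept in both and was not a member. The median cell held 4626 UMIs among Cxcl9-positive cells and 3964 UMIs among Cxcl9-zero cells. Because a deeper cell is more likely to show a *Cxcl9* UMI, each comparison was repeated with every cell thinned to 2600 UMIs, a depth that 76 Cxcl9-positive cells and 40 Cxcl9-zero cells reached.

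*Cxcl9* encodes a chemokine that draws activated T cells through the receptor CXCR3, and monocytes and macrophages make it in response to interferon-γ from T cells. NF-κB, the factor that inflammatory cytokines switch on, is known to add to this response. Inflammatory monocytes leave the marrow through CCR2, and they can take on macrophage or antigen-presenting functions as they mature. *Cxcl9* lies on chromosome 5 at 92321347 to 92328079 (GRCm38, minus strand), 18.6 kb from *Cxcl10*, its neighbor at 92346638 to 92348889 on the same strand, which encodes another ligand of the same receptor.

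The 250 bases before the starts of *Cxcl9*, *Cxcl10* and *Saa3* are shown because *Cxcl9* defines the members, *Cxcl10* is its neighbor and shares its receptor, and *Saa3* had the highest ratio of the contrast. The sequences come from RefSeq (GRCm38.p6) and read 5′ to 3′ on the minus strand, from which all of them are transcribed. Starts are those of RefSeq. For *Saa3* the window, from 46715677 to 46715926, overlaps the end of the gene as GENCODE places it, at 46715700. Capitals mark matches on either strand to 4 motifs. TTCNNNGAA is the gamma-activated site of interferon-γ-induced genes. TTANNNTAA is a different palindrome of the same length and spacing, and no match to it is a match to TTCNNNGAA. GGGNNTTCC is a form of the NF-κB site and GAAANNGAA a form of the interferon-stimulated response element.
Cxcl9, chr5:92328080-92328329: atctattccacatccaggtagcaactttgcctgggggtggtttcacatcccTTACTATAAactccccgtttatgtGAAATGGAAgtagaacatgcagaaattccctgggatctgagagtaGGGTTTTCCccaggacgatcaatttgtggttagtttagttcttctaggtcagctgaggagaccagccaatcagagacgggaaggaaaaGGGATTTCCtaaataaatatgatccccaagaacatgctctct
Cxcl10, chr5:92348890-92349139: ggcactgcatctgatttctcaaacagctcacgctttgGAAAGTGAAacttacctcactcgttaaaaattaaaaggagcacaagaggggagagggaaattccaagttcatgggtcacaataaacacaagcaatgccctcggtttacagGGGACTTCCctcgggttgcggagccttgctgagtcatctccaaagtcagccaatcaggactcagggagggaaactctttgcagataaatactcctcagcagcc
Saa3, chr7:46715677-46715926: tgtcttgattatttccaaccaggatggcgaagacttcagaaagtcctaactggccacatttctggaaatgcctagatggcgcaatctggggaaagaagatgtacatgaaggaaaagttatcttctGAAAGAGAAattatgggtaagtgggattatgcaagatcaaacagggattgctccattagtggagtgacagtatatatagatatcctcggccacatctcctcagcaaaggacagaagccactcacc
*Cxcl9* held 2 matches to GGGNNTTCC, beginning at -130 and -42 from the start, 1 to TTANNNTAA at -199 and 1 to GAAANNGAA at -175. *Cxcl10* held 1 match to GGGNNTTCC at -103 and 1 to GAAANNGAA at -213, and *Saa3* held 1 match to GAAANNGAA at -125. No match overlapped another, and TTCNNNGAA was not found in these windows. Over all 32851 promoter windows of that length, 4.98% held GGGNNTTCC, 4.62% held TTANNNTAA, 7.13% held GAAANNGAA and 7.02% held TTCNNNGAA. A match describes letters only and says nothing of binding in these cells.

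*Cxcl9* was unevenly spread over its own cells. Members held between 1 and 69 *Cxcl9* UMIs, with a median of 11.5 and quartiles of 6.75 and 19.25. There were 9 members with 1 UMI, 9 with 2, none with 3, 2 with 4 and 68 with at least 5. The 5 cells with the most held 20.3% of the class's 1344 *Cxcl9* UMIs. Together the members carried 70.3% of the 1911 *Cxcl9* UMIs in kept SAA cells, although they were 12.1% of those cells. After thinning, 5 of the 76 members no longer showed a *Cxcl9* UMI. Against a floor of 3 UMIs over the whole Cxcl9-zero class, the *Cxcl9* level was at least 171.5-fold higher in members, which the rule itself sets.

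**Figure D1:**
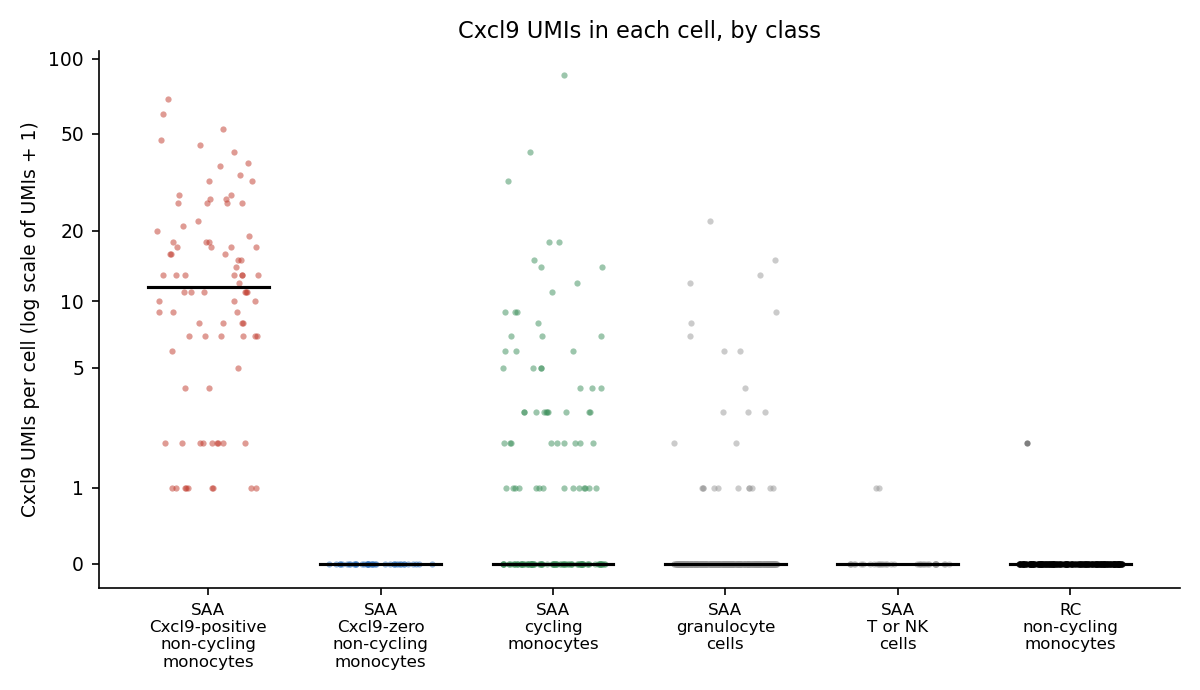
Each point is 1 cell, placed by its *Cxcl9* UMIs on a log scale of UMIs + 1 (vertical axis) and its class (horizontal axis), with a black bar at the class median. The 88 Cxcl9-positive cells run between 1 and 69 UMIs with a median of 11.5, while 60 of 146 cycling monocytes, 26 of 413 granulocyte cells and 2 of 39 T or NK cells of SAA and 1 of 251 non-cycling monocytes of RC lie above 0.

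*Cxcl9* was also found in cycling monocytes, granulocyte cells and T or NK cells of the SAA library, at lower shares. Cycling monocytes were those with at least 5 UMIs of the division genes, granulocyte cells had at least 3 UMIs of the granule genes and more of these than of the monocyte genes, and T or NK cells had at least 3 UMIs over 6 lymphocyte genes and fewer than 3 of the monocyte genes. A *Cxcl9* UMI was found in 41.1% of 146 cycling monocytes (33.0–49.5), at 317 CPM, although these cells had a median of 8640 UMIs. It was found in 6.29% of 413 granulocyte cells (4.15–9.09; median 6849 UMIs) and in 5.13% of 39 T or NK cells (0.627–17.3; median 4629 UMIs), with levels of 38.6 and 10.3 CPM. Of the granulocyte cells, 9 held at least 5 *Cxcl9* UMIs. These 9 all held *Ly6a* too and most held *H2-Ab1*, genes described below that most cells of the class lacked. The source of the *Cxcl9* UMIs in granulocyte cells and T or NK cells was not tested. All 3 SAA cells that fell in no class held *Cxcl9*, with 9 UMIs in all. In RC, 1 of 251 non-cycling monocytes (0.398%, 0.0101–2.20; median 2908 UMIs) passed the full rule, with 2 UMIs, and 0 of 317 granulocyte cells held any, which allows a share of up to 0.946%.

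The members carried the markers of monocytes and few of other lineages. Over 20 monocyte genes that the rule did not use, the summed level was 28314 CPM in Cxcl9-positive cells and 29443 CPM in Cxcl9-zero cells, between 43 and 484 UMIs per Cxcl9-positive cell and between 35 and 254 per Cxcl9-zero cell. *Lyz2*, the lysozyme of myeloid cells, stood at 11016 CPM in Cxcl9-positive cells and 10861 CPM in Cxcl9-zero cells, a ratio of 1.01 (0.962–1.07). Of the 5 rule genes, *F13a1* (194 against 740 CPM) and *Ccr2* (941 against 1559 CPM) were lower in members, *Ms4a6c* was level at 1002 against 1013 CPM, and *Csf1r*, the receptor for monocyte growth factor, was higher at 257 against 142 CPM. The sum over all 5 was between 3 and 5 UMIs in 11 members and in 0 Cxcl9-zero cells.

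Markers of lymphoid, erythroid and dendritic cells had sums far below those of the monocyte genes in both groups, and most of them had no UMI. Of 23 T or NK cell genes, 20 had no UMI in either group; the list summed to 163 CPM in Cxcl9-positive cells (0 to 15 UMIs per cell) and 62.6 CPM in Cxcl9-zero cells (0 to 3). *Ccl5*, a chemokine gene that macrophages also express, gave 44 of the members' 75 UMIs, held in 12 cells, against 0 UMIs in Cxcl9-zero cells. The T cell receptor and CD3 genes gave 1 UMI in 1 member. Of 11 B or plasma cell genes 9 were at 0 in both groups (118 CPM in Cxcl9-positive cells, 182 CPM in Cxcl9-zero cells, 0 to 5 and 0 to 3 UMIs per cell), and of 10 erythroid genes 8 were at 0 (2.18 and 5.69 CPM, at most 1 UMI per cell in each group). *Flt3* and *Zbtb46*, which define dendritic cells, had no UMI in either group. The 9 type 1 and migratory dendritic cell genes summed to 52.3 CPM in Cxcl9-positive cells and 22.8 CPM in Cxcl9-zero cells (0 to 2 UMIs per cell in each), with 7 of them at 0 in both. The monocyte-derived and type 2 dendritic cell genes reached 155 and 136 CPM (0 to 6 and 0 to 5 UMIs per cell), with 6 of 12 at 0, and plasmacytoid genes 28.3 and 28.4 CPM (0 to 2 and 0 to 1), with 5 of 7 at 0.

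The granulocyte genes outside the rule had nearly equal sums. These 18 genes stood at 11863 CPM in Cxcl9-positive cells and 11851 CPM in Cxcl9-zero cells, with 0 to 562 and 0 to 358 UMIs per cell, and 3 of them were at 0 in both. Most of these UMIs came from *S100a8*, a calcium-binding protein gene of neutrophils and monocytes, which reached 7245 CPM in Cxcl9-positive cells and 8762 CPM in Cxcl9-zero cells. The part of granulocyte RNA in either class was not tested.

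Across the transcriptome, 892 genes had at least 100 UMIs over both classes together. Of these, 40 were at least 2-fold higher in Cxcl9-positive cells (4.48%), *Cxcl9* itself included, and 12 were at least 2-fold lower (1.35%). The median log2 ratio over all 892 was -0.01, and 49.1% had ratios above 1 and 50.9% below 1. At equal depth, 53 were at least 2-fold higher (5.94%) and 18 at least 2-fold lower (2.02%). Of the 39 higher genes other than *Cxcl9*, 33 were also 2-fold higher at equal depth and all 39 kept their direction, as did the 12 lower genes, of which 10 were 2-fold lower. Since the genes were read in the cells that *Cxcl9* chose, these counts describe the 2 classes. The limit of 100 UMIs sums 459067 UMIs in Cxcl9-positive cells and 175763 UMIs in Cxcl9-zero cells. A gene high in members thus passes it more easily, which bears on the counts of short lists below.

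**Figure D2:**
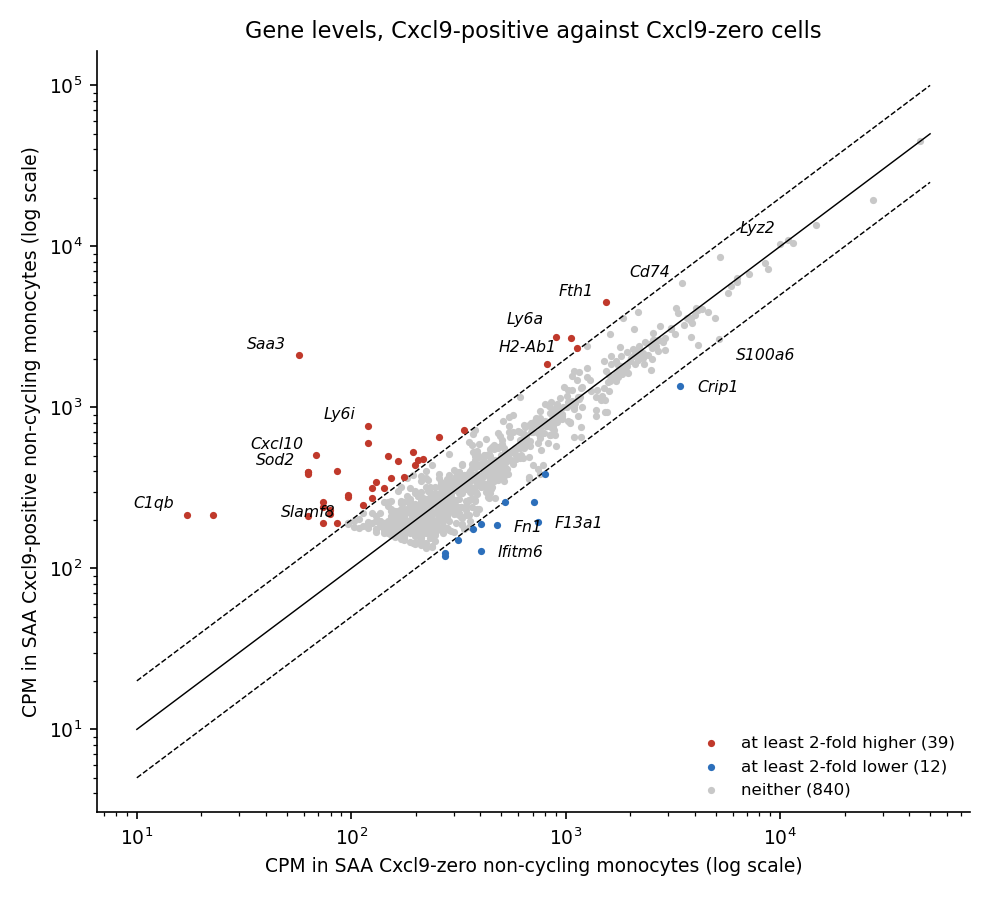
Each point is 1 of the 892 genes with at least 100 UMIs, without *Cxcl9*, placed by its CPM in the 88 Cxcl9-positive cells (vertical, log scale) and in the 40 Cxcl9-zero cells (horizontal, log scale). The solid line is equal levels and the dashed lines a 2-fold difference, with 39 genes above (red) and 12 below (blue); *Saa3* lies farthest above at 2109 against 56.9 CPM.

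*Saa3*, which encodes an acute-phase serum amyloid A protein that macrophages secrete, differed most. Cxcl9-positive cells held 0 to 105 *Saa3* UMIs with a median of 4.5, and Cxcl9-zero cells 0 to 5 with a median of 0, so that the ranges overlapped at the low end. The level was 2109 CPM (1978–2246) in Cxcl9-positive cells and 56.9 CPM (27.3–105) in Cxcl9-zero cells, where only 10 UMIs were counted, a ratio of 37.1 (20.1–77.5) and of 32.1 (15.5–80.3) at equal depth. *Saa3* was detected in 61 of 88 members and 5 of 40 Cxcl9-zero cells. In thinned cells it was found in 67.1% of Cxcl9-positive cells (55.4–77.5) and 12.5% of Cxcl9-zero cells (4.19–26.8), beside 5.17% of granulocyte cells (3.23–7.80) and 3.45% of T or NK cells (0.0873–17.8), whose intervals overlap that of Cxcl9-zero cells. The ratio was 273 when cells with 2 to 4 UMIs of division genes were left out of both classes, and 16.5 when *Cxcl9* was called on the thinned counts. Cycling monocytes of SAA held *Saa3* as well, with up to 47 UMIs in a cell before thinning. *Saa3* lies on chromosome 7 at 46711998 to 46715700.

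*H2-Ab1*, the β chain of the MHC class II molecule I-A, was detected in 87 of 88 members. It had 0 to 51 UMIs per Cxcl9-positive cell with a median of 10, and 0 to 26 per Cxcl9-zero cell with a median of 3. The level was 2326 CPM (2189–2470) in Cxcl9-positive cells and 1132 CPM (980–1301) in Cxcl9-zero cells, a ratio of 2.05 (1.76–2.40) and of 2.35 (1.92–2.90) at equal depth. Without the 27 members that held a *C1qa*, *C1qb* or *C1qc* UMI the ratio was 1.75. The gene lies on chromosome 17 at 34257689 to 34269419.

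*Slamf8*, a receptor of the SLAM family found on activated macrophages, set the classes apart less clearly. Members held 0 to 5 UMIs with a median of 1, and Cxcl9-zero cells 0 to 4 with a median of 0. Its level was 192 CPM (154–236) in Cxcl9-positive cells and 96.7 CPM (56.3–155) in Cxcl9-zero cells, a ratio of 1.98 (1.17–3.56), just under 2-fold. At equal depth the ratio was 1.43 (0.757–2.85), an interval that includes 1, with *Slamf8* detected in 40.8% of Cxcl9-positive cells (29.6–52.7) and 22.5% of Cxcl9-zero cells (10.8–38.4). Only 88 and 17 UMIs underlie these values. Of the 4 marker genes given for these cells, *Saa3* and *H2-Ab1* thus had higher levels in members at both depths, with ranges that overlapped those of Cxcl9-zero cells. *Slamf8* had an interval that included 1 at equal depth. The markers were given with earlier results of these data known, so their levels here are no test of the class. *Slamf8* lies on chromosome 1 at 172581758 to 172590568.

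Among 22 chemokine ligand genes only *Cxcl9*, *Cxcl10* and *Ccl6* had 100 UMIs. *Cxcl10* was 7.37-fold higher (4.14–14.5), at 503 CPM in Cxcl9-positive cells and 68.3 CPM in Cxcl9-zero cells. It was patchy, with 0 to 43 UMIs per Cxcl9-positive cell and 0 to 5 per Cxcl9-zero cell, and it was detected in 28 of 88 members and 4 of 40 Cxcl9-zero cells. Members with a *Cxcl10* UMI had a median of 13 *Cxcl9* UMIs and 5421 UMIs in all, and members without it 11 and 4514. In thinned members with 1, 2 to 4, 5 to 14 and 15 or more *Cxcl9* UMIs, *Cxcl10* was detected in 25%, 50%, 19.2% and 26.5% of cells. Its level was 192, 385, 281 (169–439) and 747 CPM (577–950) in that order, with 8 cells in each of the first bins. The *Cxcl10* ratio was 17.0 at equal depth (5.65–83.9), where few UMIs remained in Cxcl9-zero cells. *Ccl6*, a chemokine of resting myeloid cells, was lower, at 187 CPM in Cxcl9-positive cells and 330 CPM in Cxcl9-zero cells, a ratio of 0.568 (0.402–0.806).

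Of 19 interferon-γ-inducible GTPases, which attack vacuoles that hold microbes, 12 had 100 UMIs, and 4 of them were at least 2-fold higher and none lower, beside 4.48% and 1.35% over all genes tested. The median log2 ratio was 0.48, against -0.01 over all genes tested. *Gbp5* was 3.36-fold higher (2.23–5.25), with 497 CPM in Cxcl9-positive cells and 148 CPM in Cxcl9-zero cells. *Gbp2b* had a ratio of 2.81 (1.90–4.30), *Gbp8* of 2.25 (1.29–4.18) and *Gbp4* of 2.22 (1.56–3.22). *Iigp1*, the GTPase gene with the most UMIs, was level at 1128 CPM in Cxcl9-positive cells and 1155 CPM in Cxcl9-zero cells, a ratio of 0.977 (0.829–1.15). The guanylate-binding proteins are close relatives in sequence, and how reads were shared among them was not examined.

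Of the genes of interferon-γ signalling and transcription, most stayed under 2-fold. *Irf1*, a transcription factor that interferon-γ induces, had a ratio of 1.10 (0.787–1.56). *Socs1*, a feedback inhibitor of interferon receptors, was the only gene of the 5 tested in this list to pass 2-fold. Over all genes tested, 4.48% were higher and 1.35% lower by that limit. *Socs1* had 279 CPM in Cxcl9-positive cells and 96.7 CPM in Cxcl9-zero cells, a ratio of 2.88 (1.73–5.10). None of the 10 type I interferon-stimulated genes tested passed 2-fold in either direction, with a median log2 ratio of -0.03, close to the shares and the median over all genes. *Ifi27l2a*, a member of that list, was lower, at 2431 CPM in Cxcl9-positive cells and 4119 CPM in Cxcl9-zero cells, a ratio of 0.590 (0.537–0.649). Cxcl9-zero cells carried interferon-inducible RNA too, since *Iigp1*, at 1155 CPM in them, had 0 UMIs in RC non-cycling monocytes.

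All 7 MHC class II genes with 100 UMIs had ratios above 1, against 49.1% of all genes tested, with a median log2 ratio of 0.75. Of them 2 were at least 2-fold higher, against 4.48% of all genes, namely *H2-Ab1* and *H2-Eb1*. *H2-Eb1*, the β chain of the other class II molecule I-E, had 1867 CPM in Cxcl9-positive cells and 814 CPM in Cxcl9-zero cells (ratio 2.29, 1.92–2.76). *Cd74*, the invariant chain that guides class II molecules to the endosome, had 0 to 129 UMIs per Cxcl9-positive cell with a median of 25, and 0 to 46 per Cxcl9-zero cell with a median of 12.5. Its ratio was 1.68 (1.54–1.84), and that of *H2-Aa* 1.77 (1.55–2.02). Of 13 MHC class I presentation genes tested, none passed 2-fold, near the 4.48% higher and 1.35% lower over all genes. *B2m*, the light chain of class I, had a ratio of 1.16 (1.06–1.28), and *H2-K1* of 1.03 (0.920–1.17).

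**Figure D3:**
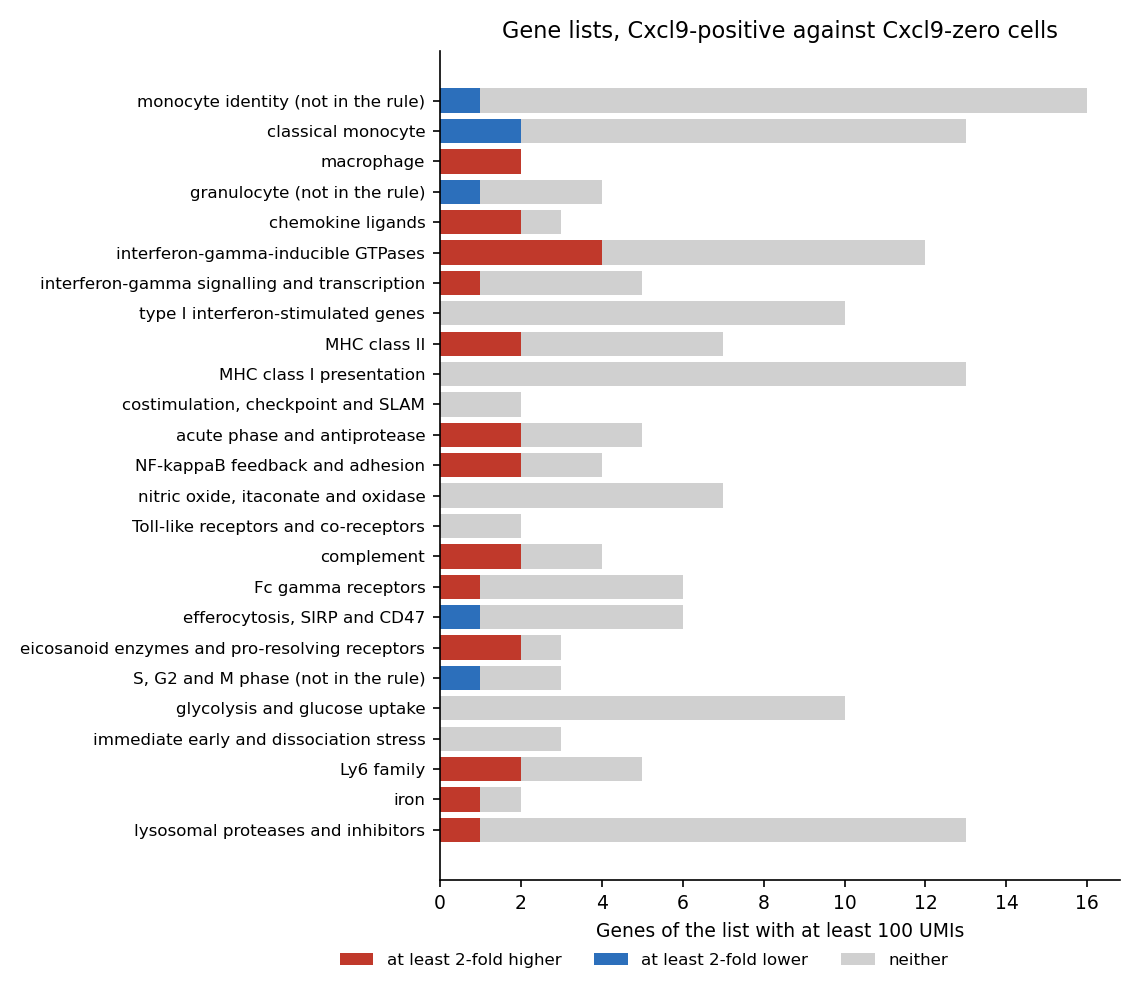
Bars give, for each gene list with at least 2 genes tested, the number of genes with at least 100 UMIs that were at least 2-fold higher (red), at least 2-fold lower (blue) or neither (grey) in Cxcl9-positive against Cxcl9-zero cells. The interferon-γ-inducible GTPases had 4 of 12 genes higher and MHC class II 2 of 7, while none of the 13 MHC class I and 10 type I interferon-stimulated genes passed 2-fold; over all 892 genes, 4.48% were higher and 1.35% lower.

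Complement and macrophage genes marked some of the members. The 3 genes of the C1q subunits, which bind immune complexes and dying cells, lie side by side on chromosome 4. They had 209 UMIs in Cxcl9-positive cells and 4 in Cxcl9-zero cells, or 455 and 22.8 CPM. A C1q UMI was found in 27 of 88 members and 1 of 40 Cxcl9-zero cells, 14 members held at least 5, and 5 members held 57.9% of the total. *C1qb* alone had 99 and 3 UMIs, with a ratio of 12.6 (4.20–62.3). Members with a C1q UMI had a median of 17 *Cxcl9* UMIs and 5806 UMIs in all, and members without one 10 and 4401. *Cfb*, complement factor B of the alternative pathway, was more widespread, in 76.1% of Cxcl9-positive cells and 22.5% of Cxcl9-zero cells. Its levels were 396 and 62.6 CPM, a ratio of 6.34 (3.46–12.9). *C3*, the central complement component, had a ratio of 1.85 (1.41–2.45), and *Itgam*, the CD11b of the sort gate and a chain of complement receptor 3, had one of 1.18 (0.834–1.71).

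The 18 macrophage genes summed to 1113 CPM in Cxcl9-positive cells (0 to 54 UMIs per cell, present in 73 cells) and 188 CPM in Cxcl9-zero cells (0 to 5 UMIs, present in 20 cells). Both members of the list with 100 UMIs were over 2-fold higher. That limit sums both classes, and *C1qb* reached it almost wholly on UMIs in Cxcl9-positive cells. The count therefore cannot be weighed against the 4.48% of all genes tested. *Maf*, a transcription factor of macrophages, had a ratio of 3.48 (1.96–6.72), and *C1qb* was the other. Among genes below 100 UMIs, *Adgre1*, which encodes F4/80, had 61 UMIs in Cxcl9-positive cells and 5 in Cxcl9-zero cells, and *Mertk*, a receptor for the uptake of dying cells that was chosen after its values were seen, 21 and 0. Of the 18 genes, 1 was at 0 in both classes (*Timd4*), and *Cd5l*, *Vcam1* and *Siglec1*, which mark resident macrophages, had 3, 11 and 2 UMIs in Cxcl9-positive cells and none in Cxcl9-zero cells. The higher sum stood beside nearly equal monocyte sums, and whether macrophages in the gate or maturing monocytes gave these UMIs was not tested.

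Of 5 acute phase and antiprotease genes tested, the given marker *Saa3* and *Serpina3g* were at least 2-fold higher, beside 4.48% of all genes tested. *Serpina3g*, an intracellular protease inhibitor, had a ratio of 5.05 (3.24–8.29), at 603 CPM in Cxcl9-positive cells and 119 CPM in Cxcl9-zero cells. Outside that list, *Sod2*, the mitochondrial superoxide dismutase and a classic NF-κB target, had 0 to 11 UMIs per Cxcl9-positive cell with a median of 2, and 0 to 3 per Cxcl9-zero cell with a median of 0, with a ratio of 6.37 (3.48–12.98). *Marcksl1*, a membrane-bound regulator of actin, had a ratio of 9.38 (3.55–35.1) on 98 and 4 UMIs, and its relative *Marcks* of 4.70 (2.77–8.56). *Fth1*, the heavy chain of the iron store ferritin, was present in every cell of both classes, with 1 to 150 UMIs per Cxcl9-positive cell (median 18.5) and 1 to 27 per Cxcl9-zero cell (median 5.5). It reached 4481 CPM in Cxcl9-positive cells and 1542 CPM in Cxcl9-zero cells, a ratio of 2.91 (2.56–3.31), while the other iron gene tested, *Ftl1*, did not pass 2-fold.

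Within the Ly6 family the members differed in direction. *Ly6a*, which encodes Sca-1, a surface protein of stem cells that interferons induce on other cells, had 0 to 66 UMIs per Cxcl9-positive cell with a median of 10, and 0 to 22 per Cxcl9-zero cell with a median of 1. Its level was 2747 CPM in Cxcl9-positive cells and 905 CPM in Cxcl9-zero cells, a ratio of 3.04 (2.57–3.60). *Ly6i* had a ratio of 6.44 (4.14–10.5), with 769 and 119 CPM. *Ly6c2*, which encodes Ly6C of the sort gate, was lower, with a ratio of 0.727 (0.669–0.790). *Ly6e* had a ratio of 0.912 (0.818–1.02). *Ly6a*, *Ly6i* and *Ly6c2* are close relatives in sequence, so reads may have been split among them.

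A few genes of other families passed 2-fold. *Fcgr4*, an activating receptor for IgG, had a ratio of 3.38 (1.81–6.99), while *Fcgr1* was at 1.30 (0.842–2.09). Only *Fcgr4* passed 2-fold among 6 Fcγ receptor and signalling genes tested, beside 4.48% higher and 1.35% lower over all genes. Of 3 eicosanoid enzyme and pro-resolving receptor genes tested, 2 were at least 2-fold higher and none lower, beside 4.48% and 1.35% over all genes. *Pla2g7*, which breaks down platelet-activating factor, had a ratio of 2.55 (1.86–3.57). *Fpr2*, a formyl peptide receptor that also binds resolution mediators, had a ratio of 2.59 (1.44–5.06). *Aif1*, a calcium-binding protein of macrophages, had a ratio of 2.74 (1.91–4.04), and *Ctsd*, a lysosomal protease, of 2.31 (1.62–3.38). None of the 10 glycolysis genes, 7 genes of the nitric oxide, itaconate and oxidase list, 3 immediate early or stress genes, or 2 Toll-like receptor genes tested passed 2-fold, near the shares over all genes. All 10 glycolysis genes had ratios above 1, against 49.1% of all genes, with a median log2 ratio of 0.40.

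The 12 lower genes included *F13a1*, *Fn1* and *S100a4*. *F13a1*, the A chain of coagulation factor XIII and a rule gene, had the lowest ratio, 0.262 (0.198–0.346). *Ifitm6*, a transmembrane protein of the interferon-induced family, had a ratio of 0.318 (0.221–0.456), at 129 CPM in Cxcl9-positive cells and 404 CPM in Cxcl9-zero cells. *S100a4*, a calcium-binding protein tied to cell movement, had 0 to 9 UMIs per Cxcl9-positive cell with a median of 1, and 0 to 13 per Cxcl9-zero cell with a median of 3. Its ratio was 0.361 (0.279–0.469), and that of *S100a6* was 0.515 (0.472–0.561), at 2668 CPM in Cxcl9-positive cells and 5183 CPM in Cxcl9-zero cells. *Fn1*, which encodes the matrix protein fibronectin, had a ratio of 0.387 (0.283–0.530), and *Crip1*, a small zinc-binding LIM protein, of 0.395 (0.353–0.443), at 1353 CPM in Cxcl9-positive cells and 3425 CPM in Cxcl9-zero cells. *Anxa1*, the anti-inflammatory annexin, had a ratio of 0.455 (0.304–0.682), and *Itgb7*, an integrin chain, of 0.464 (0.335–0.644). *Napsa*, an aspartic protease, *Gsr*, glutathione reductase, and *Scp2*, a lipid carrier, had ratios of 0.491 (0.371–0.652), 0.477 (0.340–0.672) and 0.439 (0.292–0.660). *S100a10* and *Ahnak*, whose proteins bind each other at the membrane, did not reach 2-fold, at 0.559 (0.467–0.670) and 0.509 (0.405–0.643). Of 13 classical monocyte genes tested, *S100a4* and *Fn1* were at least 2-fold lower and none was higher, against 1.35% and 4.48% of all genes, and 10 of 13 had ratios below 1, against 50.9% of all genes, with a median log2 ratio of -0.30. *Hmgb2*, a chromatin protein that is high in dividing cells and not a rule gene, was lower as well, at 388 CPM in Cxcl9-positive cells and 802 CPM in Cxcl9-zero cells, a ratio of 0.483 (0.385–0.607). The classes also differed in the 6 division genes of the rule, with 3 or 4 UMIs in 6 of 88 members and 7 of 40 Cxcl9-zero cells. The part of this in the *Hmgb2* ratio was not tested.

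Other genes named in the study's account of marrow monocytes varied. *Cd47*, the signal that protects cells from being eaten, was lower in members, at 320 CPM in Cxcl9-positive cells and 438 CPM in Cxcl9-zero cells, a ratio of 0.731 (0.551–0.976) and of 0.625 (0.418–0.938) at equal depth. Its receptor *Sirpa* had 364 CPM in Cxcl9-positive cells and 307 CPM in Cxcl9-zero cells, with an interval that includes 1 (ratio 1.18, 0.866–1.64). *Fgl2*, an immunoregulatory prothrombinase, had a ratio of 1.33 (1.05–1.71). Counts of *Tnf* (20 and 2 UMIs), *Cmklr1* (20 and 1), *Tlr4* (17 and 11), *Icam1* (46 and 12) and *Ccr1* (58 and 18) were under 100 UMIs, and the intervals of *Tnf*, *Tlr4*, *Icam1* and *Ccr1* included 1. For *Cmklr1*, the chemerin and resolvin E1 receptor, the ratio was 7.66 (1.22–317) on 1 UMI in Cxcl9-zero cells.

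Several of these levels followed the amount of *Cxcl9* within the class. At equal depth, the cells fell into 40 with no *Cxcl9* UMI, 8 with 1, 8 with 2 to 4, 26 with 5 to 14 and 34 with 15 or more, counted before thinning. *Ly6a* stood at 817, 1538, 1827, 2678 and 3620 CPM over these bins, in that order, and *H2-Ab1* at 1106, 1827, 1346, 2337 and 3281 CPM. *Saa3* was at 67.3, 1202, 721, 1982 and 2862 CPM. The cells just inside the rule, with 1 *Cxcl9* UMI, thus had 1202 CPM of *Saa3* (8 cells), and those just outside 67.3 CPM, but 2 of these 8 cells held 20 of their 25 *Saa3* UMIs. *Crip1* ran the other way, at 3587, 2163, 1538, 1642 and 928 CPM. *Slamf8* showed no order beyond its intervals, at 135, 96.2, 144, 237 and 192 CPM, and *Lyz2* stayed between 9279 and 11493 CPM. The bins with 1 and with 2 to 4 UMIs hold few cells, and their intervals overlap for *Saa3* and *H2-Ab1*.

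**Figure D4:**
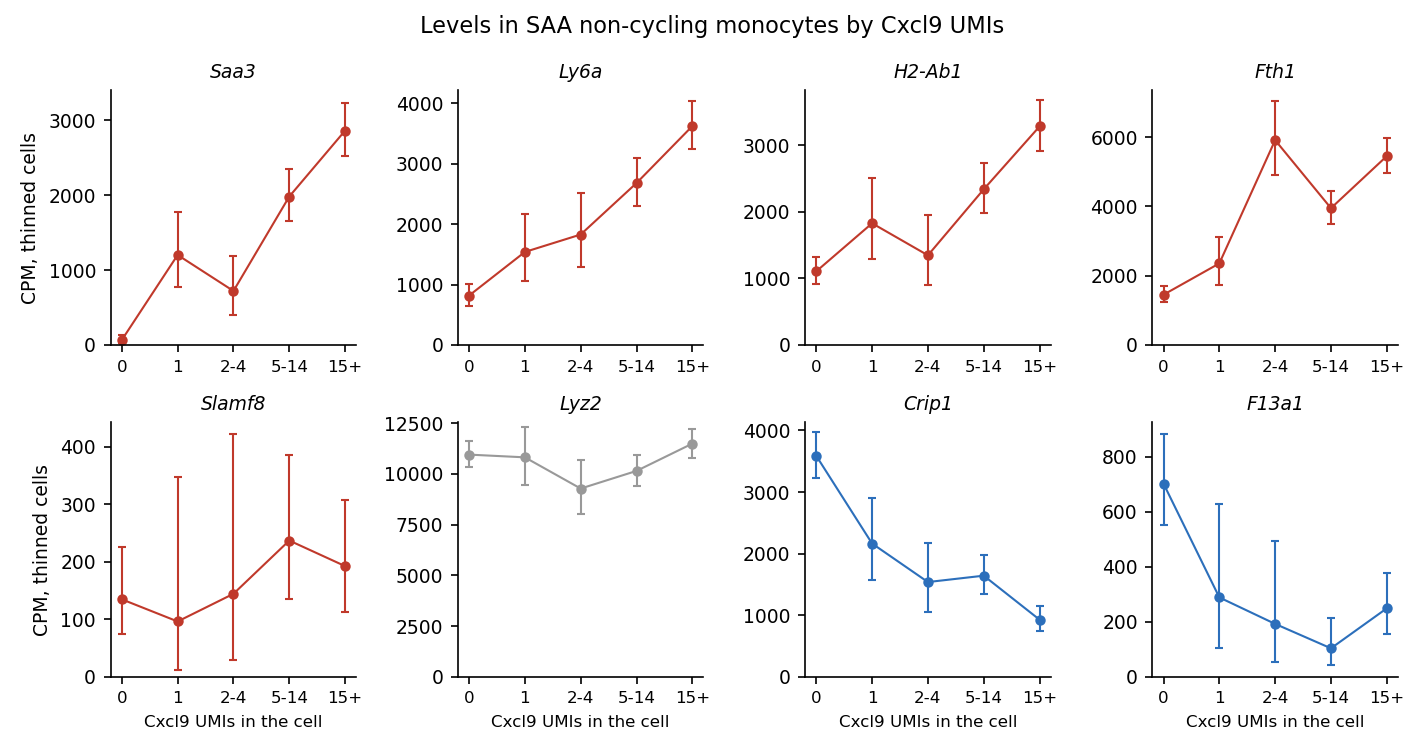
CPM of 8 genes (vertical axes, starting at 0) in SAA non-cycling monocytes thinned to 2600 UMIs, grouped by *Cxcl9* UMIs per cell before thinning (horizontal axes), with exact 95% Poisson intervals as bars. *Ly6a* goes up at each step to 3620 CPM and *Crip1* is lowest, at 928 CPM, in cells with 15 or more *Cxcl9* UMIs, while *Lyz2* stays between 9279 and 11493 CPM.

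Over the 116 thinned non-cycling monocytes, the genes whose counts were most like those of *Cxcl9* among 1665 genes were *Ly6a* (Spearman's rho 0.65), *Fth1* (0.61), *Ly6i* (0.60), *Sod2* (0.57), *H2-Ab1* (0.54), *Serpina3g* (0.54), *Saa3* (0.54), *Cfb* (0.50), *Cd74* (0.48) and *Pla2g7* (0.46). The lowest values were those of *Crip1* (-0.59), *S100a6* (-0.49) and *Fn1* (-0.45). Among the 76 thinned members alone, where no cell lacked *Cxcl9* by choice, the same genes gave 0.48 for *Ly6a*, 0.44 for *Sod2*, 0.41 for *H2-Ab1* and 0.24 for *Saa3*, and -0.32 for *Crip1*. The points are cells of 1 library at equal depth, drawn from 3 pooled mice, and the values are a description.

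The cycling monocytes of the same library, which the rule leaves out, could be divided by *Cxcl9* in the same way, a comparison added after the data were seen. There, 60 cells held a *Cxcl9* UMI and 86 did not, with medians of 10300 and 7653 UMIs. Of the 29 genes higher in members that had 100 UMIs in these cells, 28 had ratios above 1 and 6 were at least 2-fold higher, against 55.9% and 0.914% of the 875 genes tested. All 12 lower genes had ratios below 1, and 2 were at least 2-fold lower, against 0.457% of genes. *Saa3* was 8.18-fold higher (5.71–12.1), *Cxcl10* 16.1-fold (8.79–32.9), *Ly6a* 1.91-fold (1.73–2.10) and *H2-Ab1* 1.71-fold (1.503–1.94). *Slamf8* was 4.20-fold higher (1.89–10.5) on 40 UMIs, but its ratio was 0.560 with the cells thinned to 2600 UMIs. *Aif1* was the exception among the higher genes named above, with a ratio of 0.787 (0.610–1.01). The depths of these classes differ, and the difference between cycling and non-cycling cells was not tested.

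Set against the 251 non-cycling monocytes of RC, Cxcl9-zero cells lay between members and RC cells for several of the genes named here and not for others. *Ly6a* stood at 2747 CPM in Cxcl9-positive cells, 905 CPM in Cxcl9-zero cells and 1.25 CPM in RC cells. *H2-Ab1* stood at 2326, 1132 and 232 CPM in that order, and it was detected in 7.17% of RC cells, with up to 35 UMIs in a cell. *Slamf8* was at 192, 96.7 and 13.7 CPM. *Saa3* was at 2109, 56.9 and 7.49 CPM. *Fth1* differed from these, being near equal in Cxcl9-zero cells (1542 CPM) and RC cells (1743 CPM). *Sod2* (399, 62.6 and 87.4 CPM) and *Marcks* (401, 85.3 and 230 CPM) were lowest in Cxcl9-zero cells. Among the lower genes, *Fn1* was at 185, 478 and 2738 CPM, *S100a4* at 257, 711 and 1740 CPM and *F13a1* at 194, 740 and 1300 CPM, while *Crip1* was at 1353, 3425 and 4533 CPM. SAA and RC were 1 library each, so library and condition cannot be told apart.

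**Figure D5:**
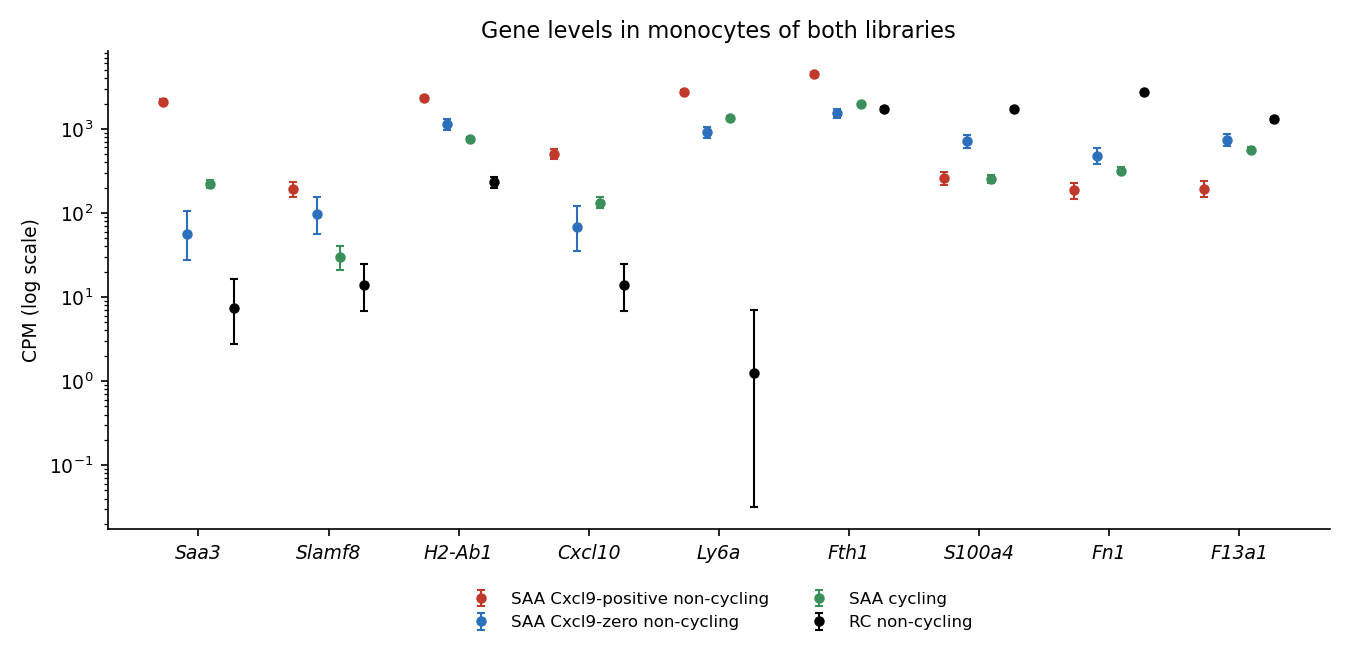
CPM (vertical axis, log scale) of 9 genes in SAA Cxcl9-positive, SAA Cxcl9-zero, SAA cycling and RC non-cycling monocytes, with exact 95% Poisson intervals as bars that cover counting error only. *Ly6a* lies at 2747, 905, 1361 and 1.25 CPM in that order, and *Fn1* at 185, 478, 317 and 2738 CPM.

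Some RNAs that track library or RNA quality also differed. *AY036118*, a transcript that overlaps ribosomal sequence, had a ratio of 2.58 (2.21–3.03), with 32.9% of its UMIs in 5 members, and a ratio of 1.001 (0.919–1.09) in the cycling cells. *Lars2* and the nuclear RNA *Malat1*, chosen after their values were seen, had ratios of 1.81 (1.62–2.03) and 1.65 (1.54–1.78). The median mitochondrial share was 2.08% in Cxcl9-positive cells and 1.73% in Cxcl9-zero cells. With *Cxcl9*, *Saa3*, these 3 genes and the mitochondrial genes left out of the totals, 43 genes were at least 2-fold higher and 12 lower, among them all 40 and all 12 of the genes above. Without the 27 members that held C1q RNA, 39 were higher and 7 lower, of which 36 and 5 were among the genes above.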

How the data were processed

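Cells of both groups were profiled with the 10x single cell 5′ v2 protocol, and per the labels the authors aligned the reads to mm10 with Cell Ranger 6.0.1 and deposited raw UMI counts per gene and barcode. Per the study's methods, its own analysis left out cells of more than 25% mitochondrial RNA or under 1000 genes; the deposited barcodes include such cells, and the same limits were applied here. No annotation version or doublet filter was given in the sources used here. Members, lists and comparisons were chosen with earlier results of these data known. From the deposited counts, classes were set by UMI sums, counts were summed per class and scaled to CPM, and ratios were read over genes with at least 100 UMIs in the 2 classes together, with conditional binomial, Poisson and Clopper-Pearson 95% intervals (scipy 1.17.1). Cells were thinned without replacement to 2600 UMIs, the 10th percentile rounded down. The rule for ratios was tested on simulated Poisson sums. Of 50 genes with a true log2 ratio of 1, 60% passed 2-fold, and of 50 genes with a ratio of -1, 56% did. Of 694 genes with no true difference, 0% were called higher. The simulation held no spread between cells, so it cannot show how the intervals fare with UMIs concentrated in few cells.

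Genes were named if they were *Cxcl9* or one of the other 3 given markers, among the 15 highest or 15 lowest by the interval bound nearest 1, among the 3 genes with the most UMIs of a list, at least 2-fold apart within a list, named by the study for its monocytes, or among the 10 most correlated with *Cxcl9*. Others are said to be chosen after their values were seen. Of 555 genes in 35 lists, 549 were in the files. Doublets were not removed: Scrublet in scanpy 1.11.5, run at an expected rate of 1% because the loading was not known, called 7 SAA cells and no member or Cxcl9-zero cell. Alternatives covered depth, the *Cxcl9* limit, weighting, scaling (with TMM in edgeR 4.0.16), low counts, cell filters and cells left out. Positions come from GENCODE vM21 (GRCm38) and promoters from RefSeq. No model was fitted and no p-value computed, since cells of 1 library are not replicates. Results for some items are not reported here.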

Additional observations from a re-analysis of the deposited data

Results flagged for a closer look

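*Cxcl9* was also found in SAA cells outside the monocyte classes, where RC had none. Among SAA granulocyte cells, 26 of 413 held a *Cxcl9* UMI, with at most 22 UMIs in a cell and 9 cells with at least 5, against 0 of 317 in RC. The 9 cells all held *Ly6a* too and most held *H2-Ab1*, genes that most cells of the class lacked. The cell with 22 *Cxcl9* UMIs held 9 UMIs of *H2-Ab1* and 16 of *Ly6a*. Among SAA barcodes outside the cell filter, 13 of 96 held one (13.5%, 7.41–22.04, exact binomial interval), with at most 14 UMIs in a barcode, against 0 of 136 in RC. The source of these UMIs was not tested.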

How the results depend on the processing

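The number of members ranged between 65 (at least 1500 genes and at most 10% mitochondrial RNA) and 88 over the alternatives that change the rule or the cell filter, and was 61 without members that held C1q RNA and 39 in pairs of nearest depth. All 12 lower genes kept their direction under each of the 19 alternatives, and so did all 40 higher genes except 1 that could not be read under each of 2 settings: *Cxcl9* has no UMI in Cxcl9-zero cells, and *C1qb* has none in members without C1q. The count of higher genes, 40, moved to 97 at 1.5-fold, 365 with a minimum of 20 UMIs, 882 with at least 1 UMI in each class and 81 at 1300 UMIs per cell. The count of lower genes, 12, moved under the same settings to 62, 177, 1228 and 33, to 20 when *Cxcl9* was called on thinned cells, and to 7 without members that held C1q RNA. The settings with a minimum of 20 UMIs or of 1 UMI in each class tested more genes than the 892 above, many at low counts. Their counts are therefore not shares of the same set. Of 2352 values of named genes under alternatives, 2256 lay within the counting interval of the reported value, 96 outside it and none changed the direction of a gene past 2-fold. Leaving out a replicate was not possible with 1 library per group, and TMM moved all ratios by 0.07 on the log2 scale. No paired analysis was possible because each group is 1 pooled library. Cells of 1 library share their mice, sort and droplets, so the intervals leave out the spread between mice. Depth limits the genes of low counts: *Slamf8*, with 88 and 17 UMIs, had a ratio with an interval of 1.17 to 3.56.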
